A study of Homo sapiens with 12 samples.

Results

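The 44 genes described here encode proteins of DNA repair and of the checkpoint that damaged DNA sets off. They were taken by name from the 59050 gene names of the count table. The rule uses no measured value, but the members were chosen with earlier results of these data known. By role, 20 belong to homologous recombination, 10 to the Fanconi anaemia route, 5 to the damage checkpoint, 2 to mismatch repair, 5 to end joining and 2 to single-strand break repair. RNA was sequenced from MyLa cells, an established line from cutaneous T cell lymphoma, treated for 24 h in 4 groups of 3 libraries. The groups received 3.2 nM romidepsin, 5.7 uM afatinib dimaleate, both drugs (the combination), or DMSO alone. All 4 groups shared the same medium with interleukin-2 at 20 ng/mL, and DMSO, the solvent, was present in every group at the volume of the combination. Romidepsin is an inhibitor of histone deacetylases, the enzymes that strip acetyl groups from histones, and afatinib blocks EGFR and related ERBB kinases. Every library comes from 1 cell line, and it is not stated that replicates were grown as separate cultures, so the p-values reflect the spread between libraries, which may be technical.

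Cells mend a double-strand break by copying an intact sister chromatid (homologous recombination), which takes place when DNA has been replicated, or by joining the ends directly (end joining), which works throughout the cell cycle. The Fanconi anaemia route unhooks crosslinks between the DNA strands and hands the break to recombination. The kinases ATM and ATR sense breaks and stalled forks and pass the signal to CHEK2 and CHEK1, which hold the cell cycle. Many recombination and Fanconi genes are transcribed mainly in S phase, so their RNA is known to follow proliferation.

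Libraries held between 8972228 counts in romidepsin replicate 2 and 12696653 counts in combination replicate 2, and 3 counts amounted to 0.229 to 0.343 CPM (counts scaled by effective library size), a limit that covers counting error only. Levels below are CPM, and differences are log2 fold changes with their standard errors (SE) from edgeR's quasi-likelihood test, called at a Benjamini-Hochberg adjusted p below 0.05 over 16208 genes. In the check of cell type, CD3E, CD4, CD5, CD7 and LCK had at most 5 counts in every library, whereas IL2RA had 2785 to 14960 counts. CD28 had 5 to 7 counts with romidepsin, 0 with afatinib and 0 to 3 with the combination, against 0 in DMSO. CD2 had 240 to 1947 counts over the libraries and CD3D 86 to 288. CD3G had 122 to 985 counts, CD247 174 to 973 and TRAC 77 to 262. The summed level of 15 T cell markers was 808 to 828 CPM with romidepsin, 1268 to 1305 CPM with afatinib and 455 to 485 CPM with the combination, against 1819.6 to 1939.9 CPM in DMSO. IL2RA had the most counts of these markers in every library. PTPRC went the other way with romidepsin, at 422 to 515 counts, against 206 to 277 in DMSO. KRT5, a keratin of keratinocytes, had 126 counts in afatinib replicate 3, 43 in combination replicate 1, and 59 and 94 in DMSO replicates 1 and 2, with at most 1 count in each of the other 8 libraries. The summed level of 10 keratinocyte markers was 138 to 148 CPM with romidepsin and 193 to 225 CPM with afatinib. It was 128 to 148 CPM with the combination, against 201 to 256 CPM in DMSO. SFN and KRT10 had the most counts of these markers in every library, and they moved in opposite directions with the combination. SFN had 702 to 800 counts with the combination, against 1818 to 2189 in DMSO. KRT10 had 826 to 1015 counts with the combination, against 442 to 472 in DMSO. The summed level of 5 fibroblast markers was carried by COL1A1 and COL3A1, while DCN and LUM had 0 counts. It was 25.96 to 32.4 CPM with romidepsin and 97.3 to 101 CPM with afatinib. With the combination it was 14.6 to 17.2 CPM, against 173 to 199 CPM in DMSO. The sums of 5 myeloid, 5 B cell and 4 erythroid markers reached at most 43.5, 7.29 and 0.457 CPM in any library. The part of these markers in the results below was not tested.

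The summed level of the 44 genes was lowest with the combination. It was 1732 ± 39.4 CPM with romidepsin, 2104 ± 27.7 CPM with afatinib and 1243 ± 15.2 CPM with the combination, against 2343 ± 31.5 CPM in DMSO (mean ± SD, n = 3). Recombination, Fanconi, checkpoint, mismatch repair and end joining sums each lay lower in all combination libraries than in all libraries of the other 3 groups. Genes of high level weigh most in a sum, and not every gene followed it. With the combination MSH6 made up 121 of the 129 CPM of mismatch repair, while PMS2 had 7.65 CPM, against 7.45 CPM with romidepsin. In end joining, LIG4 had 56.5 CPM with the combination, against 38.1 CPM in DMSO. For single-strand break repair, the combination and afatinib libraries overlapped. Over the same libraries, 25 genes of DNA replication summed to 2846 ± 85.8 CPM with romidepsin, 3213 ± 87.8 CPM with afatinib and 1918 ± 24.0 CPM with the combination, against 3708 ± 165 CPM in DMSO. The sum of 20 mitosis genes was 2544 ± 107 CPM with romidepsin, 2909 ± 51.7 CPM with afatinib and 1377 ± 33.9 CPM with the combination, against 4580 ± 53.8 CPM in DMSO. Both lists, like the 44 genes, were lowest with the combination. With afatinib they fell, while the recombination sum was 896 ± 13.5 CPM, against 829 ± 42.4 CPM in DMSO. The part of the replication and mitosis lists in the result was not tested. In bulk RNA, fewer cells in S phase and less RNA per cell cannot be told apart.

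**Figure D1:**
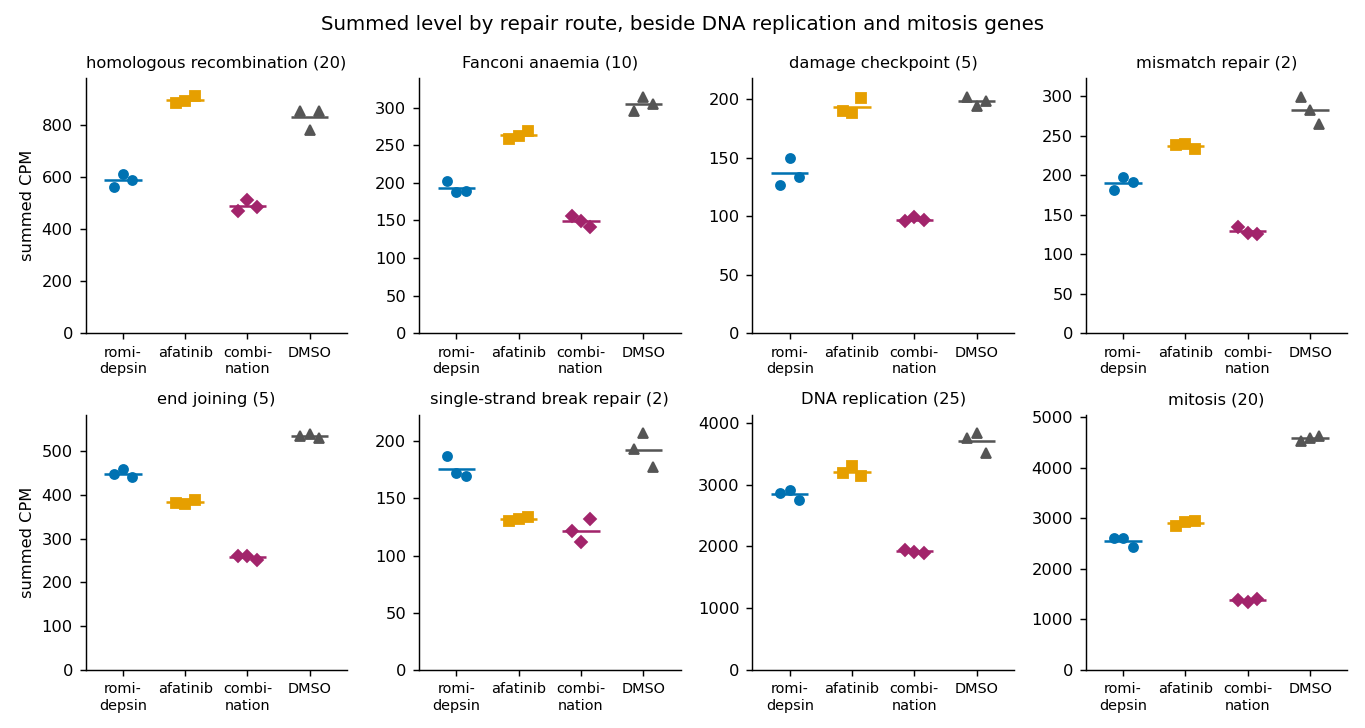
Summed CPM (vertical axes from 0) of the members of each repair route, and of the DNA replication and mitosis lists, in every library. Points are libraries and lines are group means, with the number of genes in brackets. The combination libraries are lowest in every panel except single-strand break repair, where they overlap the afatinib libraries.

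Of the 44 genes, 43 had enough counts to be tested. The exception was RAD54B, a helicase-like recombination protein, with 3 to 9 counts with romidepsin, 3 to 5 with afatinib and 2 to 5 with the combination, against 0 to 5 in DMSO. RAD54B shares 73.8% of its exon bases with FSBP on the same strand, so its counts are uncertain. Romidepsin lowered 26 and raised 5 of the 43, where 31.5% of all tested genes were lower and 31.1% higher than in DMSO (edgeR, adjusted p below 0.05). The median log2 fold change was -0.37 over the 43 genes, against 0.00 over all tested genes. Afatinib lowered 14 and raised 9, where 23.3% of all tested genes were lower and 22.0% higher, and the median of the 43 genes was 0.00. With the combination 33 fell and 4 rose, where 37.1% of all tested genes were lower and 37.2% higher, and the median was -0.69 against -0.01 over all tested genes. Without DMSO replicate 3 the number that rose with the combination was 2. These 3 comparisons share the DMSO libraries.

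At least 2-fold falls numbered 5 with romidepsin (10.9% of all tested genes) and 16 with the combination (18.3%). Afatinib gave 0 falls of that size (2.54% of all tested genes), and FANCF was the single gene that rose at least 2-fold (6.36%). The lowest of the 4 group means was that of the combination for 32 of the 43 genes, of romidepsin for 4, of afatinib for 3 and of DMSO for 4. For these counts the share over all tested genes was not computed. All libraries of a treatment lay on 1 side of all DMSO libraries for 35 genes with romidepsin, 26 with afatinib and 36 with the combination, where 64.7%, 52.7% and 74.8% of all tested genes did so. The afatinib counts depend on the processing. Scaling by library size alone, which shifts the median of all genes by 0.10, gave 12 higher and 9 lower. Leaving out the 4 libraries high in KRT5 leaves DMSO with 1 library. The afatinib calls of BRCA1, BARD1, RAD52, RAD54L, XRCC3, EXO1, FANCE, FANCI, FANCM, ATM, TOPBP1, MSH6 and XRCC5 were then lost. The cause of these losses was not tested.

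**Figure D2:**
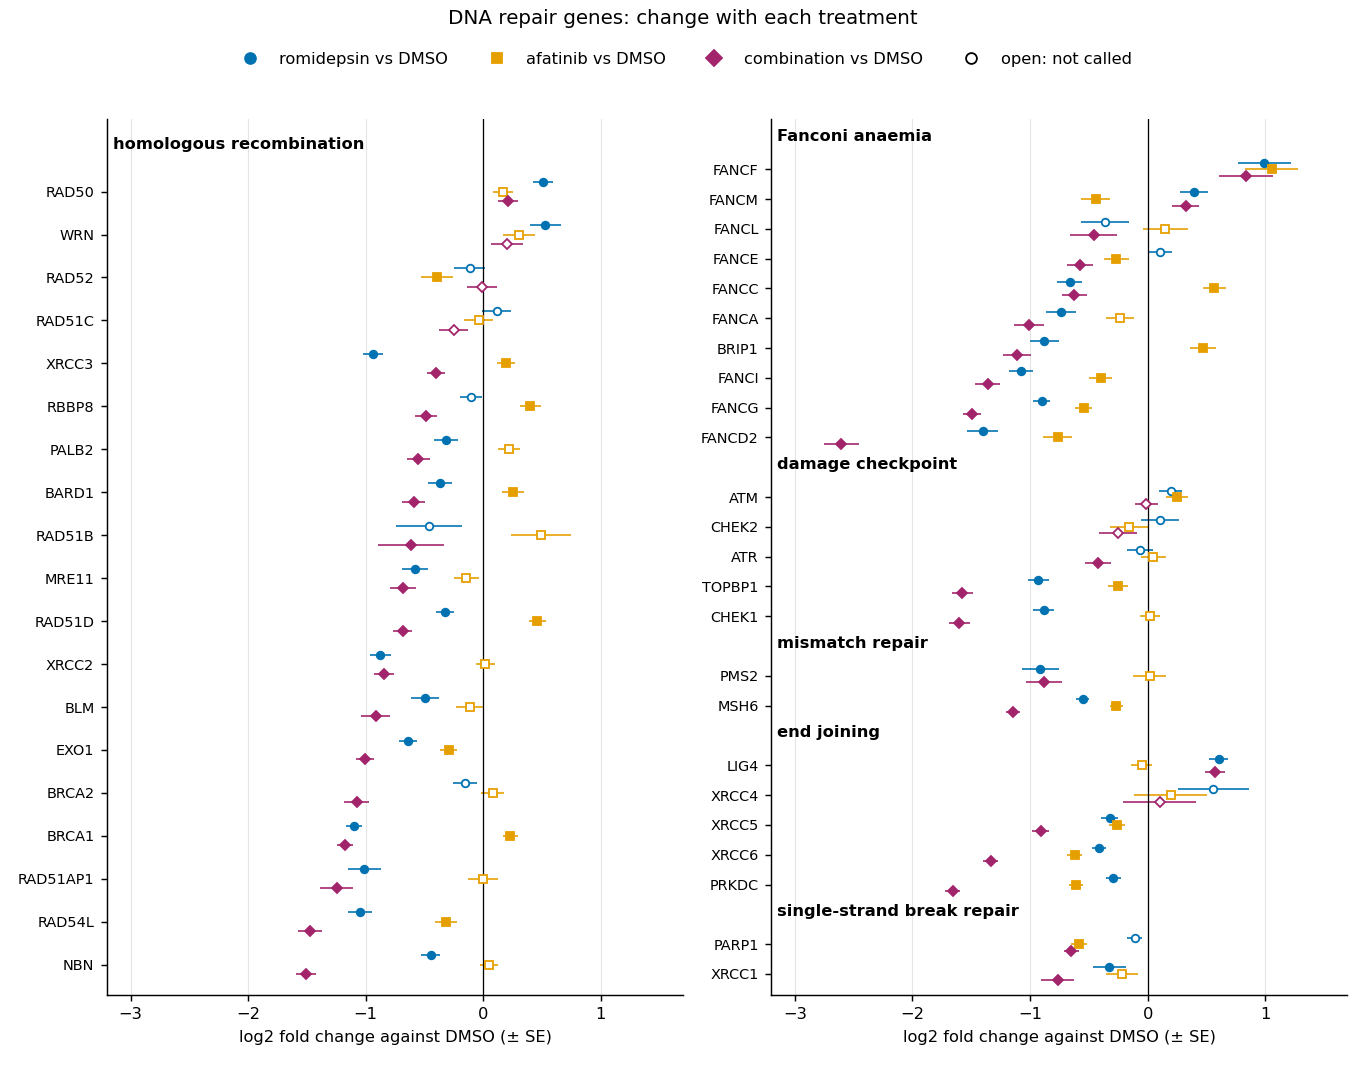
Log2 fold change of each tested repair gene against DMSO (horizontal axis, edgeR estimate ± SE) with romidepsin, afatinib and the combination, by repair route. Filled symbols passed the test at an adjusted p below 0.05 and open symbols did not. Most combination symbols lie left of 0, down to FANCD2 at -2.61, and of the symbols right of 0 those of LIG4, FANCM, FANCF and RAD50 are filled and those of WRN and XRCC4 open.

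Promoter letters were counted over the members whatever their change, and are printed for genes that fell at least 2-fold with the combination. RefSeq windows (GRCh38.p14) of 250 bases before a gene's start were at hand for 38 of the 44 genes, 58 windows in all, and not for FANCI, NBN, PRKDC, RAD54B, WRN and XRCC5. E2F factors drive S phase genes, and E2F-type letters were searched on both strands as TTCCCGC or TTGGCGC or TTCGCGC or TTGCCGC, whose matches may overlap each other. They occurred in 20 of the 58 windows (34.5%) and in 3822 of all 35116 windows (10.9%). The CHR-type letters TTTGAA and TTCGAA occurred in 6.90% of the members' windows and in 14.3% of all windows. CCAAT occurred in 43.1% of the members' windows and in 32.0% of all windows. Of the 13 genes with a window that fell at least 2-fold with the combination, 7 had an E2F-type match, as had 8 of the 25 other genes with a window. A match is a description of letters, not a site in use.

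Given here are 6 of the 7 genes with an E2F-type match that fell at least 2-fold with the combination. The 100 bases before the start are shown 5′ to 3′ on the gene's strand. Capitals mark E2F-type letters on either strand, and also the letters ATTGG (the other strand of CCAAT) in RAD51AP1 and RAD54L. In TOPBP1 a pair of matches overlap in 1 run.
BRCA1, chr17:43125365-43125464, minus strand: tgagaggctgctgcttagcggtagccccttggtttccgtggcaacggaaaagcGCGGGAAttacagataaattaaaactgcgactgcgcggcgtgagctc
RAD51AP1, chr12:4538790-4538889, plus strand: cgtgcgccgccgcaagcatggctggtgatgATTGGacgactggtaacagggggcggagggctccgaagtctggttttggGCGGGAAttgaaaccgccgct
RAD54L, chr1:46247588-46247687, plus strand: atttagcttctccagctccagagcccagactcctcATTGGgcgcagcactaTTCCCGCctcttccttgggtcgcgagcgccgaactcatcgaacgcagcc
FANCG, chr9:35079943-35080042, minus strand: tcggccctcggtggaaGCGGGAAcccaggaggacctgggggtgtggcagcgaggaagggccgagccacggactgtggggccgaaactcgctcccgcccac
TOPBP1, chr3:133661942-133662041, minus strand: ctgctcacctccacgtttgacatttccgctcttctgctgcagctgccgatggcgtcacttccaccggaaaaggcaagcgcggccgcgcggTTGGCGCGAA
MSH6, chr2:47783855-47783954, plus strand: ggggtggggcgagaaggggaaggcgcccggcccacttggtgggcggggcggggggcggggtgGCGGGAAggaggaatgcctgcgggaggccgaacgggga
The windows of BRCA2, FANCD2 and EXO1, which also fell at least 2-fold with the combination, held no match to any of the motifs searched. Those of CHEK1, BRIP1 and XRCC6, which fell as far, held no E2F-type match. A second window of BRCA1 held no match to any of the motifs either. A window of MSH6 upstream of the one shown, chr2:47782895-47783144, held a CCAAT match but no E2F-type match.

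Of 19 tested homologous recombination genes, 12 fell and 2 rose with romidepsin, where 31.5% of all tested genes fell and 31.1% rose. With the combination 15 fell and 1 rose, where 37.1% of all tested genes fell and 37.2% rose. With afatinib 3 fell and 5 rose, where the shares over all tested genes were 23.3% and 22.0%. BRCA1, BARD1, PALB2 and BRCA2 form the complex that loads the recombinase onto single-stranded DNA. BRCA1 (chromosome 17, 43044295 to 43170245) had 59.3, 61.8 and 62.2 CPM with romidepsin, 158, 151 and 152 CPM with afatinib and 51.9, 63.5 and 58.1 CPM with the combination, against 134, 124 and 134 CPM in DMSO. All romidepsin and combination libraries lay below the DMSO libraries, and all afatinib libraries above them. The log2 fold change of BRCA1 was -1.10 (SE 0.07, edgeR adjusted p = 3.33e-19) with romidepsin, 0.23 (SE 0.06, edgeR adjusted p = 0.00299) with afatinib and -1.18 (SE 0.07, edgeR adjusted p = 9.26e-21) with the combination. The combination and romidepsin libraries overlapped, with a difference of -0.08 (SE 0.07, edgeR adjusted p = 0.393). BARD1, the partner of BRCA1, showed log2 fold changes of -0.37 with romidepsin, 0.25 with afatinib and -0.59 with the combination, all called. The afatinib and DMSO libraries of BARD1 overlapped. That call was lost without afatinib replicate 3 (edgeR adjusted p = 0.173), DMSO replicate 2 (0.235) or DMSO replicate 3 (0.0515), and in 6 alternatives in all (adjusted p up to 0.286). The romidepsin call of BARD1 was lost without DMSO replicate 1 (0.062).

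BRCA2 (chromosome 13, 32315086 to 32400266), which carries the recombinase, had 31.6, 37.97 and 34.1 CPM with romidepsin, 37.6, 40.4 and 43.5 CPM with afatinib and 17.4, 20.04 and 16.9 CPM with the combination, against 35.2, 34.1 and 45.5 CPM in DMSO. The romidepsin and afatinib libraries overlapped the DMSO libraries, and the combination libraries lay below all 9 others. BRCA2 had log2 fold changes of -0.15 (SE 0.10, edgeR adjusted p = 0.185) with romidepsin, 0.08 (SE 0.10, edgeR adjusted p = 0.53) with afatinib and -1.08 (SE 0.11, edgeR adjusted p = 9.86e-13) with the combination. Without the 4 libraries high in KRT5, the romidepsin value of BRCA2 was -0.35. Of DMSO that fit keeps replicate 3 alone, the highest library of BRCA2 at 45.5 CPM. PALB2, which joins BRCA1 to BRCA2, had 24.01, 29.4 and 28.3 CPM with romidepsin, 36.5, 40.7 and 40.8 CPM with afatinib and 22.5, 26.3 and 20.4 CPM with the combination, against 35.3, 32.4 and 33.7 CPM in DMSO. Its romidepsin and combination libraries lay below the DMSO libraries, and its afatinib libraries above them without passing the test. PALB2 showed log2 fold changes of -0.32 (SE 0.10, edgeR adjusted p = 0.00556) with romidepsin, 0.22 (SE 0.10, edgeR adjusted p = 0.0579) with afatinib and -0.55 (SE 0.10, edgeR adjusted p = 3.7e-06) with the combination. The romidepsin call of PALB2 was lost without romidepsin replicate 1 (edgeR adjusted p = 0.0699) or DMSO replicate 1 (0.0509), and in 3 alternatives in all (adjusted p up to 0.137). Its afatinib value passed without afatinib replicate 1 (0.0299), combination replicate 2 (0.0444) or DMSO replicate 1 (0.0449).

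The paralogues RAD51B, RAD51C, RAD51D, XRCC2 and XRCC3 help the recombinase filament form. RAD51D (chromosome 17, 35092208 to 35121522) had 53.7, 53.1 and 57.5 CPM with romidepsin, 92.9, 91.3 and 99.1 CPM with afatinib and 43.6, 45.7 and 38.8 CPM with the combination, against 70.3, 61.8 and 73.6 CPM in DMSO. Afatinib libraries were the highest and combination libraries the lowest, with no overlap between any pair of groups. RAD51D gave log2 fold changes of -0.32 (SE 0.08, edgeR adjusted p = 0.0003) with romidepsin, 0.46 (SE 0.07, edgeR adjusted p = 1.17e-06) with afatinib and -0.69 (SE 0.08, edgeR adjusted p = 7.78e-11) with the combination. XRCC3 had 31.6, 34.8 and 34.8 CPM with romidepsin, 77.9, 70.1 and 73.02 CPM with afatinib and 45.6, 47.2 and 53.4 CPM with the combination, against 65.9, 60.2 and 67.4 CPM in DMSO. Its romidepsin libraries were the lowest of the 4 groups and its combination libraries lay between those and DMSO. XRCC3 had log2 fold changes of -0.94 (SE 0.08) with romidepsin, 0.19 (SE 0.08) with afatinib and -0.40 (SE 0.08) with the combination, all called. The afatinib call of XRCC3 was lost without afatinib replicate 1 (edgeR adjusted p = 0.128), afatinib replicate 3 (0.0555) or DMSO replicate 2 (0.181), and in 6 alternatives in all (adjusted p up to 0.331). Since 76.7% of the exon bases of XRCC3 are shared with KLC1 on the other strand, which this counting does not separate, its values are uncertain. XRCC2 fell with romidepsin (-0.88 (SE 0.09, edgeR adjusted p = 2.22e-12)) and with the combination (-0.85 (SE 0.09, edgeR adjusted p = 2.12e-12)), and gave 0.02 with afatinib, which was not called. RAD51C passed in none of the comparisons with DMSO, with 0.12 for romidepsin, -0.04 for afatinib and -0.25 for the combination. It passed against DMSO, at -0.43 without combination replicate 3 (edgeR adjusted p = 0.00481) and at -0.38 without DMSO replicate 3 (0.00909). RAD51B was low, with 1.81 ± 0.355 CPM in the combination and 2.79 ± 0.0881 CPM in DMSO, a log2 fold change of -0.61 (SE 0.28, edgeR adjusted p = 0.0477). That call was lost in 16 alternatives, with adjusted p up to 0.269.

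Among the proteins that act on the filament and on the joint molecules, RAD51AP1 and RAD54L, both partners of the recombinase, fell strongly with romidepsin and the combination. RAD51AP1 had 11.1, 10.98 and 12.1 CPM with romidepsin, 22.8, 23.2 and 23.1 CPM with afatinib and 9.53, 12.7 and 6.86 CPM with the combination, against 25.2, 20.1 and 23.6 CPM in DMSO. The afatinib libraries overlapped DMSO, and the romidepsin and combination libraries lay below both. RAD54L, a DNA translocase, had 22.6, 24.8 and 18.2 CPM with romidepsin, 34.4, 39.7 and 34.1 CPM with afatinib and 15.6, 17.1 and 15.6 CPM with the combination, against 47.04, 42.8 and 44.8 CPM in DMSO. All 3 treatments lay below DMSO and the combination lay lowest. The log2 fold change of RAD51AP1 was -1.01 (SE 0.14, edgeR adjusted p = 1.45e-08) with romidepsin, 0.00 with afatinib (not called) and -1.25 (SE 0.14, edgeR adjusted p = 4e-11) with the combination. For RAD54L it was -1.05 (SE 0.10, edgeR adjusted p = 7.83e-13) with romidepsin, -0.32 (SE 0.10, edgeR adjusted p = 0.00511) with afatinib and -1.48 (SE 0.10, edgeR adjusted p = 7.83e-18) with the combination. RAD54L shares 19.9% of its exon bases with LRRC41 on the other strand. RAD52, which anneals single strands, fell with afatinib alone (-0.39 (SE 0.13, edgeR adjusted p = 0.0133)) and gave -0.12 with romidepsin and -0.01 with the combination, not called. The afatinib call of RAD52 was lost without afatinib replicate 1 (edgeR adjusted p = 0.066), and in 3 alternatives in all (adjusted p up to 0.109). The helicase BLM, which dissolves joint molecules, gave -0.50 with romidepsin and -0.92 with the combination, both called, and -0.12 with afatinib, not called. WRN, a related helicase, rose with romidepsin (0.53 (SE 0.13, edgeR adjusted p = 0.000598)) and gave 0.30 with afatinib and 0.20 with the combination, not called. Without DMSO replicate 1 the afatinib and combination values of WRN were 0.46 and 0.39 and passed, and without afatinib replicate 1 the afatinib value was 0.38 and passed.

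The nucleases and their partners trim break ends for recombination. With the combination NBN, MRE11, RBBP8 and EXO1 fell and RAD50 rose. NBN (chromosome 8, 89933336 to 90003228), the signalling subunit of the MRE11, RAD50 and NBN complex, had 40.8, 47.2 and 44.5 CPM with romidepsin, 58.9, 61.9 and 65.3 CPM with afatinib and 21.5, 21.9 and 19.97 CPM with the combination, against 60.1, 56.6 and 63.5 CPM in DMSO. The afatinib libraries overlapped DMSO, and the combination libraries lay far below the romidepsin libraries. NBN showed log2 fold changes of -0.45 (SE 0.08, edgeR adjusted p = 4.35e-06) with romidepsin, 0.05 (SE 0.08, edgeR adjusted p = 0.662) with afatinib and -1.51 (SE 0.09, edgeR adjusted p = 5.1e-21) with the combination. MRE11, the nuclease subunit, fell with romidepsin (-0.58 (SE 0.11, edgeR adjusted p = 1.07e-05)) and with the combination (-0.68 (SE 0.11, edgeR adjusted p = 3.29e-07)), and gave -0.14 with afatinib, not called. RAD50, the ATPase subunit, rose with romidepsin at 51.6 ± 0.592 CPM and gave 41.98 ± 3.17 CPM with the combination, against 36.4 ± 2.82 CPM in DMSO. Its log2 fold change was 0.51 (SE 0.08, edgeR adjusted p = 8.32e-07) with romidepsin and 0.21 (SE 0.08, edgeR adjusted p = 0.0234) with the combination. The combination call of RAD50 was lost without combination replicate 3 (edgeR adjusted p = 0.158) or DMSO replicate 3 (0.168), and in 3 alternatives in all (adjusted p up to 0.168). RAD50 shares 76.9% of its exon bases with other gene names, so its values are uncertain.

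RBBP8, which starts resection, had 34.6, 40.3 and 31.1 CPM with romidepsin, 50.8, 49.05 and 49.8 CPM with afatinib and 26.9, 24.7 and 29.04 CPM with the combination, against 39.8, 36.1 and 37.3 CPM in DMSO. Its afatinib libraries lay above and its combination libraries below all other groups, while romidepsin and DMSO overlapped. RBBP8 had log2 fold changes of -0.11 (SE 0.09, edgeR adjusted p = 0.327) with romidepsin, 0.40 (SE 0.09, edgeR adjusted p = 0.000208) with afatinib and -0.49 (SE 0.09, edgeR adjusted p = 8.42e-06) with the combination. EXO1, the long-range resection nuclease, fell with all 3 treatments, with log2 fold changes of -0.64 (SE 0.08, edgeR adjusted p = 3.32e-10) for romidepsin, -0.29 (SE 0.07, edgeR adjusted p = 0.001) for afatinib and -1.005 (SE 0.08, edgeR adjusted p = 1.99e-16) for the combination.

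**Figure D3:**
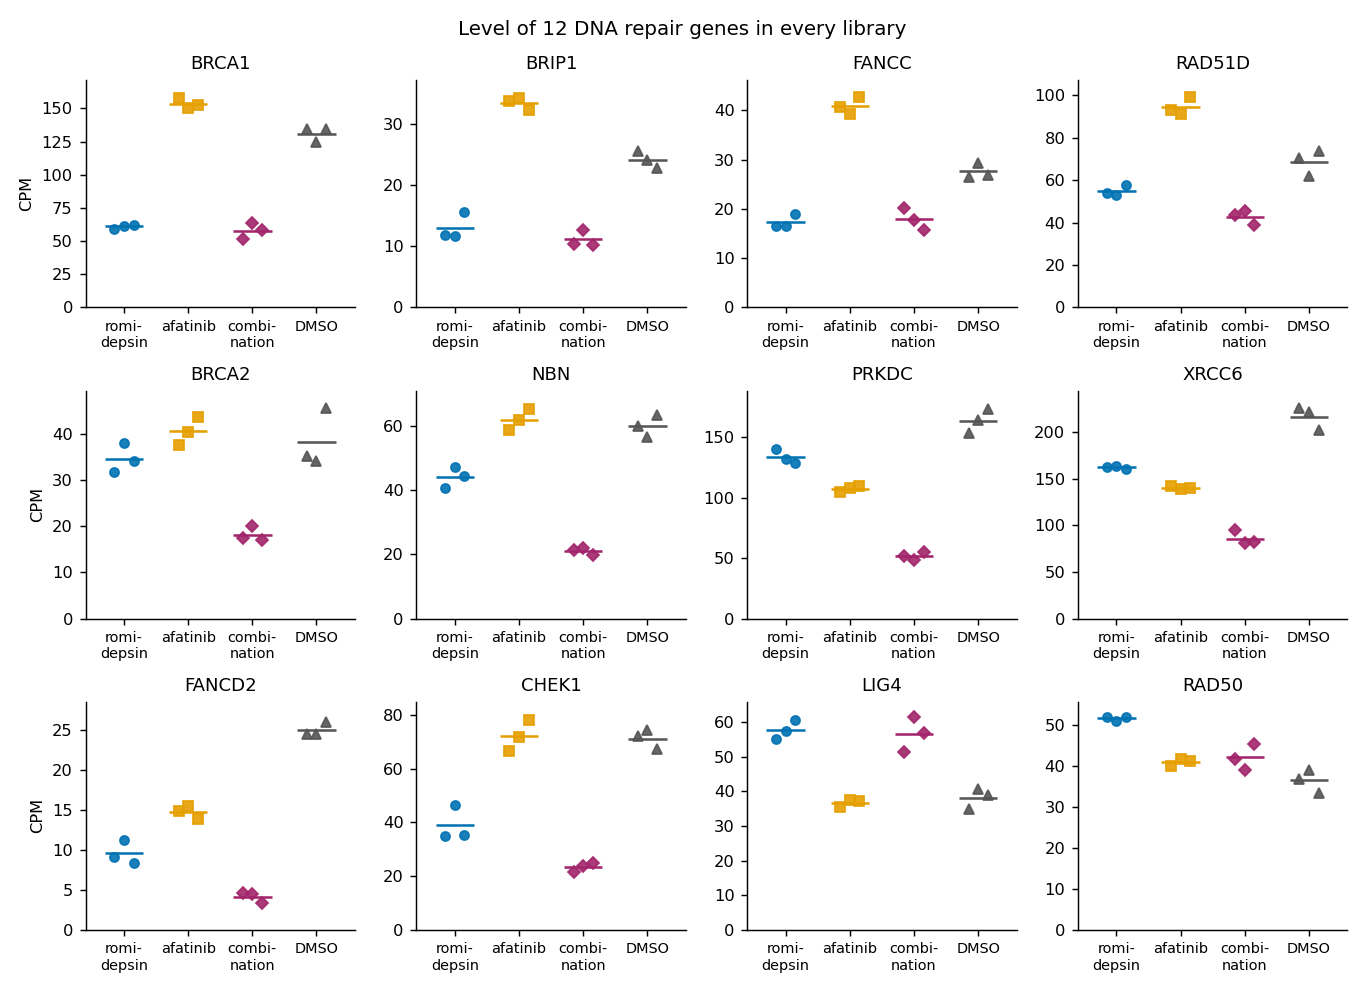
CPM (vertical axes from 0) of 12 repair genes in every library, with lines at group means (n = 3). In the top row afatinib lies above DMSO and the other treatments below it, in BRCA2, NBN, PRKDC, XRCC6, FANCD2 and CHEK1 the combination is lowest, and LIG4 and RAD50 are higher with romidepsin than in DMSO.

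In the Fanconi anaemia route, 8 of 10 genes fell and 2 rose with the combination, where 37.1% of all tested genes fell and 37.2% rose. Romidepsin gave 6 falls and 2 rises, where the shares were 31.5% and 31.1%, and afatinib 5 falls and 3 rises, where they were 23.3% and 22.0%. FANCD2 and FANCI are the pair that is tagged with ubiquitin at a crosslink and then recruits nucleases. FANCD2 (chromosome 3, 10026414 to 10101930) had 9.09, 11.2 and 8.39 CPM with romidepsin, 14.9, 15.5 and 13.9 CPM with afatinib and 4.59, 4.42 and 3.35 CPM with the combination, against 24.6, 24.5 and 26.1 CPM in DMSO. The 4 groups did not overlap, and the combination mean was 16.5% of the DMSO mean. FANCD2 showed log2 fold changes of -1.40 (SE 0.13, edgeR adjusted p = 4.92e-13) with romidepsin, -0.76 (SE 0.13, edgeR adjusted p = 1.51e-06) with afatinib and -2.61 (SE 0.15, edgeR adjusted p = 3.6e-21) with the combination, the largest falls of any member with each. FANCI had 21.1, 17.04 and 17.2 CPM with romidepsin, 29.98, 31.9 and 27.01 CPM with afatinib and 14.2, 15.9 and 15.3 CPM with the combination, against 37.5, 41.7 and 37.9 CPM in DMSO. All 3 treatments lay below DMSO, with the combination below romidepsin and romidepsin below afatinib. For FANCI the log2 fold change was -1.08 (SE 0.10, edgeR adjusted p = 9.45e-13) with romidepsin, -0.40 (SE 0.10, edgeR adjusted p = 0.000796) with afatinib and -1.36 (SE 0.11, edgeR adjusted p = 2.72e-16) with the combination.

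The Fanconi core complex places that ubiquitin. FANCG, an adaptor of the core, had 65.9, 54.3 and 57.4 CPM with romidepsin, 75.1, 73.8 and 78.9 CPM with afatinib and 43.2, 37.04 and 37.9 CPM with the combination, against 108, 114 and 110.3 CPM in DMSO. The 4 groups were separate and stood in the order combination, romidepsin, afatinib and DMSO from low to high. FANCG had log2 fold changes of -0.90 (SE 0.07, edgeR adjusted p = 4.28e-15) with romidepsin, -0.54 (SE 0.07, edgeR adjusted p = 1.68e-08) with afatinib and -1.50 (SE 0.08, edgeR adjusted p = 4.72e-23) with the combination. FANCA, a scaffold of the core, had 18.5, 17.04 and 17.1 CPM with romidepsin, 22.3, 25.7 and 26.4 CPM with afatinib and 17.6, 10.9 and 15.4 CPM with the combination, against 25.1, 29.5 and 33.5 CPM in DMSO. Romidepsin and combination libraries lay below DMSO, and afatinib libraries overlapped it. FANCA gave log2 fold changes of -0.74 (SE 0.13, edgeR adjusted p = 1.52e-06) with romidepsin, -0.24 (SE 0.12, edgeR adjusted p = 0.102) with afatinib and -1.01 (SE 0.13, edgeR adjusted p = 1.12e-09) with the combination. The afatinib value of FANCA was -0.32 and passed without DMSO replicate 1 (edgeR adjusted p = 0.0434), and 23.6% of its exon bases are shared with ZNF276.

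FANCC, also a core subunit, had 16.5, 16.6 and 18.97 CPM with romidepsin, 40.6, 39.3 and 42.6 CPM with afatinib and 20.2, 17.8 and 15.7 CPM with the combination, against 26.6, 29.3 and 26.9 CPM in DMSO. Its afatinib libraries lay above DMSO and its romidepsin and combination libraries below. FANCC had log2 fold changes of -0.66 (SE 0.11, edgeR adjusted p = 5.31e-07) with romidepsin, 0.57 (SE 0.10, edgeR adjusted p = 3.91e-06) with afatinib and -0.62 (SE 0.11, edgeR adjusted p = 8.32e-07) with the combination. FANCE, which links the core to FANCD2, gave 0.11 with romidepsin (not called), -0.27 (SE 0.11, edgeR adjusted p = 0.0385) with afatinib and -0.57 (SE 0.11, edgeR adjusted p = 7.94e-06) with the combination. The afatinib call of FANCE was lost without afatinib replicate 1 (edgeR adjusted p = 0.195), afatinib replicate 2 (0.0933) or any 1 of the DMSO replicates (0.0754 to 0.0823), and in 8 alternatives in all (adjusted p up to 0.21). FANCF, an adaptor that was low, rose with every treatment, to 5.49 ± 0.245 CPM with romidepsin, 5.70 ± 0.927 CPM with afatinib and 4.89 ± 0.924 CPM with the combination, against 2.73 ± 0.668 CPM in DMSO. In FANCF the log2 fold change was 0.99 (SE 0.23, edgeR adjusted p = 0.000178), 1.06 (SE 0.23, edgeR adjusted p = 0.000126) and 0.84 (SE 0.23, edgeR adjusted p = 0.00105) in that order of treatments. FANCL, the ubiquitin ligase of the core, gave -0.36 with romidepsin and 0.15 with afatinib, not called, and -0.46 (SE 0.20, edgeR adjusted p = 0.0375) with the combination. The combination call of FANCL was lost in 12 alternatives, with adjusted p up to 0.258 without combination replicate 3.

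FANCM, the translocase that anchors the core to DNA, fell with afatinib (-0.44 (SE 0.12, edgeR adjusted p = 0.00281)) and rose with romidepsin (0.39 (SE 0.12, edgeR adjusted p = 0.00267)) and the combination (0.32 (SE 0.11, edgeR adjusted p = 0.00996)). Its combination call was lost without combination replicate 2 (edgeR adjusted p = 0.0744) or DMSO replicate 3 (0.0517). BRIP1, a helicase that binds BRCA1, had 11.8, 11.7 and 15.5 CPM with romidepsin, 33.7, 34.2 and 32.3 CPM with afatinib and 10.4, 12.7 and 10.2 CPM with the combination, against 25.6, 23.99 and 22.7 CPM in DMSO. Afatinib libraries lay above DMSO, and the libraries of the other treatments lay below it and overlapped each other. BRIP1 had log2 fold changes of -0.88 (SE 0.12, edgeR adjusted p = 1.47e-08) with romidepsin, 0.47 (SE 0.11, edgeR adjusted p = 0.000354) with afatinib and -1.11 (SE 0.12, edgeR adjusted p = 1.92e-11) with the combination.

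In the damage checkpoint, CHEK1, TOPBP1 and ATR fell with the combination, where 37.1% of all tested genes fell. ATM and CHEK2 were not called there. CHEK1, the kinase downstream of ATR (chromosome 11, 125625665 to 125676255), had 35.1, 46.4 and 35.4 CPM with romidepsin, 66.8, 71.7 and 78.1 CPM with afatinib and 21.4, 23.9 and 25.000 CPM with the combination, against 72.1, 74.6 and 67.2 CPM in DMSO. Afatinib libraries overlapped DMSO, and combination libraries lay below romidepsin libraries, which lay below DMSO. CHEK1 had log2 fold changes of -0.88 (SE 0.09, edgeR adjusted p = 2.78e-12) with romidepsin, 0.02 (SE 0.08, edgeR adjusted p = 0.869) with afatinib and -1.60 (SE 0.09, edgeR adjusted p = 6.11e-21) with the combination. TOPBP1, the activator of ATR, had 32.6, 40.02 and 38.3 CPM with romidepsin, 64.5, 51.7 and 60.4 CPM with afatinib and 22.6, 24.8 and 23.2 CPM with the combination, against 71.5, 65.6 and 73.2 CPM in DMSO. All 3 treatments lay below DMSO, the combination lowest. TOPBP1 gave log2 fold changes of -0.93 (SE 0.09, edgeR adjusted p = 3.08e-13) with romidepsin, -0.25 (SE 0.08, edgeR adjusted p = 0.0109) with afatinib and -1.57 (SE 0.09, edgeR adjusted p = 4.51e-21) with the combination. Its afatinib call was lost without afatinib replicate 2 (edgeR adjusted p = 0.139) or DMSO replicate 1 (0.0634), and in 4 alternatives in all (adjusted p up to 0.139).

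ATR itself had 19.9, 19.1 and 19.2 CPM with romidepsin, 20.1, 22.3 and 20.7 CPM with afatinib and 15.3, 14.9 and 15.3 CPM with the combination, against 19.5, 20.4 and 21.1 CPM in DMSO. The combination libraries were the lowest, and those of the single drugs overlapped DMSO. ATR gave log2 fold changes of -0.06 (SE 0.11, edgeR adjusted p = 0.632) with romidepsin, 0.05 (SE 0.11, edgeR adjusted p = 0.746) with afatinib and -0.42 (SE 0.11, edgeR adjusted p = 0.000744) with the combination. ATM, the kinase that senses double-strand breaks, had 29.8, 34.3 and 31.7 CPM with romidepsin, 31.5, 33.9 and 33.6 CPM with afatinib and 28.4, 28.4 and 25.7 CPM with the combination, against 28.6, 24.5 and 29.9 CPM in DMSO. Only its afatinib libraries lay wholly above DMSO, at 0.25 (SE 0.10, edgeR adjusted p = 0.0294), and the other values were 0.20 (SE 0.10, edgeR adjusted p = 0.0734) with romidepsin and -0.01 (SE 0.10, edgeR adjusted p = 0.913) with the combination. That afatinib call was lost without afatinib replicate 2 (edgeR adjusted p = 0.0861), afatinib replicate 3 (0.0662) or DMSO replicate 2 (0.194), and in 5 alternatives in all (adjusted p up to 0.453). The romidepsin value of ATM passed without romidepsin replicate 1 (0.0473), DMSO replicate 1 (0.0487) or DMSO replicate 3 (0.0378). CHEK2, the kinase downstream of ATM, had 9.69, 9.61 and 9.28 CPM with romidepsin, 6.81, 8.50 and 8.50 CPM with afatinib and 7.82, 7.24 and 7.24 CPM with the combination, against 10.4, 8.87 and 7.26 CPM in DMSO. Every treatment overlapped DMSO, with log2 fold changes of 0.10 (SE 0.16, edgeR adjusted p = 0.59) for romidepsin, -0.16 (SE 0.16, edgeR adjusted p = 0.463) for afatinib and -0.25 (SE 0.16, edgeR adjusted p = 0.156) for the combination. Without DMSO replicate 3 the combination value of CHEK2 was -0.39 and passed (edgeR adjusted p = 0.0362).

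Both mismatch repair genes fell with romidepsin and the combination, where 31.5% and 37.1% of all tested genes fell. MSH6, which recognises mispaired bases, had 175, 190.2 and 183 CPM with romidepsin, 223, 226 and 219 CPM with afatinib and 124, 121 and 118 CPM with the combination, against 284, 267 and 252 CPM in DMSO. The 4 groups did not overlap, and the combination was lowest. MSH6 had log2 fold changes of -0.55 (SE 0.06, edgeR adjusted p = 7.41e-12) with romidepsin, -0.27 (SE 0.06, edgeR adjusted p = 0.000123) with afatinib and -1.14 (SE 0.06, edgeR adjusted p = 5.5e-23) with the combination, and it shares 16.2% of its exon bases with FBXO11. PMS2, a subunit of the endonuclease of this route, had 6.52, 7.78 and 8.06 CPM with romidepsin, 14.9, 13.6 and 14.03 CPM with afatinib and 9.53, 6.25 and 7.16 CPM with the combination, against 14.2, 15.1 and 12.9 CPM in DMSO. Romidepsin and combination libraries overlapped each other below DMSO, and afatinib libraries overlapped DMSO. For PMS2 the log2 fold change was -0.91 (SE 0.15, edgeR adjusted p = 1.32e-06) with romidepsin, 0.02 (SE 0.14, edgeR adjusted p = 0.942) with afatinib and -0.88 (SE 0.15, edgeR adjusted p = 1.15e-06) with the combination. PMS2 has near-identical pseudogene copies, and pairs that map to several places were not counted, so its values are uncertain.

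In end joining, XRCC5, XRCC6 and PRKDC fell with all 3 treatments, and the ligase LIG4 rose with romidepsin and the combination. Of all tested genes, 31.5% fell with romidepsin, 23.3% with afatinib and 37.1% with the combination. Rises made up 31.1% with romidepsin and 37.2% with the combination. XRCC6 (chromosome 22, 41621119 to 41664048) and XRCC5 encode the Ku ring that grips DNA ends. XRCC6 had 162, 163 and 160.2 CPM with romidepsin, 142, 139 and 140.1 CPM with afatinib and 94.4, 81.1 and 81.6 CPM with the combination, against 225, 221 and 201 CPM in DMSO. The groups were separate, with the combination lowest and afatinib below romidepsin. XRCC6 had log2 fold changes of -0.42 (SE 0.06, edgeR adjusted p = 6.73e-08) with romidepsin, -0.62 (SE 0.06, edgeR adjusted p = 7.21e-12) with afatinib and -1.33 (SE 0.06, edgeR adjusted p = 3.04e-24) with the combination. XRCC5 had 86.8, 105 and 87.7 CPM with romidepsin, 96.9, 93.6 and 99.5 CPM with afatinib and 59.9, 68.4 and 56.6 CPM with the combination, against 119, 113 and 116 CPM in DMSO. The single drugs overlapped each other below DMSO, and the combination lay below both. XRCC5 gave log2 fold changes of -0.32 (SE 0.07, edgeR adjusted p = 0.000116) with romidepsin, -0.26 (SE 0.07, edgeR adjusted p = 0.00229) with afatinib and -0.91 (SE 0.07, edgeR adjusted p = 1.16e-15) with the combination.

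PRKDC, the kinase recruited by Ku (chromosome 8, 47773108 to 47960183), had 139.9, 132 and 129 CPM with romidepsin, 104, 108 and 109 CPM with afatinib and 51.9, 48.4 and 54.9 CPM with the combination, against 154, 164 and 173 CPM in DMSO. The 4 groups did not overlap, and the combination mean was 31.6% of the DMSO mean. PRKDC had log2 fold changes of -0.29 (SE 0.06, edgeR adjusted p = 7.54e-05) with romidepsin, -0.61 (SE 0.06, edgeR adjusted p = 3.26e-11) with afatinib and -1.66 (SE 0.07, edgeR adjusted p = 5.03e-27) with the combination. LIG4, which seals the ends (chromosome 13, 108207439 to 108218368), had 55.2, 57.5 and 60.7 CPM with romidepsin, 35.6, 37.4 and 37.2 CPM with afatinib and 51.3, 61.4 and 56.8 CPM with the combination, against 34.97, 40.5 and 38.9 CPM in DMSO. Romidepsin and combination libraries lay above DMSO and overlapped each other. LIG4 showed log2 fold changes of 0.60 (SE 0.08, edgeR adjusted p = 1.65e-08) with romidepsin, -0.05 (SE 0.09, edgeR adjusted p = 0.67) with afatinib and 0.57 (SE 0.08, edgeR adjusted p = 3.18e-08) with the combination. XRCC4, the partner of LIG4, was low, with 3.17, 2.29 and 2.36 CPM with romidepsin, 2.21, 1.89 and 2.00 CPM with afatinib and 2.07, 1.68 and 1.98 CPM with the combination, against 1.58, 2.12 and 1.66 CPM in DMSO. The romidepsin libraries lay above DMSO without passing the test, at 0.56 (SE 0.30, edgeR adjusted p = 0.106), and the values were 0.20 (SE 0.31, edgeR adjusted p = 0.648) with afatinib and 0.10 (SE 0.31, edgeR adjusted p = 0.778) with the combination.

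The pair of single-strand break repair genes fell with the combination, where 37.1% of all tested genes fell. PARP1, which binds nicks and signals them, had 173, 157 and 156 CPM with romidepsin, 114, 119 and 117 CPM with afatinib and 110.4, 103 and 120.4 CPM with the combination, against 177, 185 and 162 CPM in DMSO. Romidepsin libraries overlapped DMSO, and afatinib and combination libraries overlapped each other below it. PARP1 had log2 fold changes of -0.11 (SE 0.06, edgeR adjusted p = 0.138) with romidepsin, -0.58 (SE 0.06, edgeR adjusted p = 1.9e-10) with afatinib and -0.65 (SE 0.06, edgeR adjusted p = 1.14e-12) with the combination. The romidepsin value of PARP1 passed without romidepsin replicate 1 (edgeR adjusted p = 0.0497) or DMSO replicate 3 (0.0378). XRCC1, the scaffold recruited by PARP1, had 13.8, 14.98 and 14.003 CPM with romidepsin, 16.8, 13.04 and 16.1 CPM with afatinib and 11.2, 8.99 and 11.3 CPM with the combination, against 15.98, 22.5 and 15.4 CPM in DMSO. DMSO replicate 2 was the highest library, and all romidepsin and combination libraries lay below all DMSO libraries. The log2 fold change of XRCC1 was -0.33 (SE 0.14, edgeR adjusted p = 0.038) with romidepsin, -0.22 (SE 0.14, edgeR adjusted p = 0.201) with afatinib and -0.77 (SE 0.14, edgeR adjusted p = 4.8e-06) with the combination. The romidepsin value of XRCC1 was -0.14 without DMSO replicate 2 (edgeR adjusted p = 0.424), and its call was also lost without romidepsin replicate 1 (0.0952), romidepsin replicate 3 (0.0957), afatinib replicate 1 (0.0555) or afatinib replicate 3 (0.0586). It was lost too by DESeq2, by limma-voom, with only the compared groups and without the 4 libraries high in KRT5, 9 alternatives in all (adjusted p up to 0.796). Of its exon bases, 29.9% are shared with other gene names.

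Levels between genes were compared per kb of gene length. XRCC6 was highest in every group, at 49.2 ± 0.486 CPM per kb with romidepsin, 42.7 ± 0.502 with afatinib and 26.1 ± 2.297 with the combination, against 65.7 ± 3.84 CPM per kb in DMSO. In DMSO, MSH6 at 24.4 ± 1.48 CPM per kb and PARP1 at 24.3 ± 1.63 CPM per kb differed by less than their spread. LIG4 ranked 3 of 44 in the combination and 16 in DMSO, and RAD50 ranked 15 and 26. FANCD2 ranked 42 in the combination and 31 in DMSO, and PRKDC ranked 21 and 11. RAD51B ranked 43 and RAD54B 44 in all groups.

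The combination was set against each drug to ask what the other drug added. Against romidepsin, 24 of the 43 genes were lower and 1 higher, where 29.2% of all tested genes were lower and 25.1% higher (edgeR, adjusted p below 0.05). The median was -0.36, against -0.03 over all tested genes. PRKDC had 51.7 ± 3.24 CPM with the combination, against 134 ± 5.66 CPM with romidepsin, a log2 difference of -1.37 (SE 0.07, edgeR adjusted p = 1.77e-22). FANCD2 followed at -1.20 (SE 0.17, edgeR adjusted p = 3.12e-08), NBN at -1.06 (SE 0.09, edgeR adjusted p = 2.68e-14), BRCA2 at -0.92 (SE 0.11, edgeR adjusted p = 4.35e-10) and XRCC6 at -0.92 (SE 0.06, edgeR adjusted p = 4.65e-17). These 5 genes, chosen by the size of their difference, had no overlap between the combination and romidepsin libraries. Without such a choice, 59.1% of all tested genes had none. XRCC3 was the gene higher with the combination, at 0.53 (SE 0.08, edgeR adjusted p = 4.15e-07), within the limit on its counting given above. PALB2 lay at the threshold (-0.24 (SE 0.10, edgeR adjusted p = 0.05)), and this call was lost in 16 alternatives, with adjusted p up to 0.258. The call of FANCI (-0.29 (SE 0.11, edgeR adjusted p = 0.0305)) was lost in 11, with adjusted p up to 0.238 without romidepsin replicate 1.

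Against afatinib, 33 genes were lower and 3 higher with the combination, where 35.8% of all tested genes were lower and 33.4% higher (edgeR, adjusted p below 0.05). The median was -0.77, against -0.02 over all tested genes. FANCD2 had 4.12 ± 0.669 CPM with the combination, against 14.8 ± 0.826 CPM with afatinib, a log2 difference of -1.84 (SE 0.16, edgeR adjusted p = 8.96e-15). CHEK1 gave -1.62 (SE 0.09, edgeR adjusted p = 4.79e-21), BRIP1 -1.58 (SE 0.12, edgeR adjusted p = 9.52e-17), NBN -1.56 (SE 0.09, edgeR adjusted p = 1.9e-21) and BRCA1 -1.41 (SE 0.07, edgeR adjusted p = 1.02e-23). The libraries of these 5 genes, also chosen by size of difference, did not overlap between the combination and afatinib. Without such a choice, that held for 72.2% of all tested genes. The higher genes were FANCM (0.77 (SE 0.12, edgeR adjusted p = 1.68e-07)), LIG4 (0.62 (SE 0.08, edgeR adjusted p = 4.94e-09)) and RAD52 (0.39 (SE 0.13, edgeR adjusted p = 0.00869)). PARP1 gave -0.07 (SE 0.07, edgeR adjusted p = 0.366) and was not called.

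The drugs were also set against each other. With romidepsin 26 genes were lower and 7 higher than with afatinib, where 32.4% of all tested genes were lower and 32.2% higher (edgeR, adjusted p below 0.05). BRIP1 (-1.35 (SE 0.12, edgeR adjusted p = 2.86e-14)), BRCA1 (-1.33 (SE 0.07, edgeR adjusted p = 1.85e-22)), FANCC (-1.23 (SE 0.10, edgeR adjusted p = 9.33e-15)) and XRCC3 (-1.13 (SE 0.08, edgeR adjusted p = 5.3e-17)) were lower with romidepsin. The 7 higher with romidepsin were FANCM (0.84), LIG4 (0.65), PARP1 (0.47), FANCE (0.37), RAD50 (0.34), PRKDC (0.32) and XRCC6 (0.21) on the log2 scale. No end joining gene was lower with romidepsin than with afatinib, where XRCC5 gave -0.06 (SE 0.07, edgeR adjusted p = 0.468) and XRCC4 0.36 (SE 0.30, edgeR adjusted p = 0.285).

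The interaction subtracts the log2 changes with romidepsin alone and with afatinib alone, added up, from the log2 change with the combination. It was below 0 for 21 genes and above 0 for 2, where 18.5% of all tested genes lay below and 11.7% above (edgeR, adjusted p below 0.05). The median was -0.33 over the 43 genes, against -0.06 over all tested genes. NBN had the lowest interaction among genes with at least 5 CPM, at -1.11 (SE 0.12, edgeR adjusted p = 2.1e-10), with -1.51 for the combination and -0.45 and 0.05 for romidepsin and afatinib alone. BRCA2 followed at -1.01 (SE 0.15, edgeR adjusted p = 3.36e-07), where neither drug alone passed the test. The values of RAD51D (-0.82 (SE 0.11, edgeR adjusted p = 4.89e-08)) and RBBP8 (-0.79 (SE 0.13, edgeR adjusted p = 4.3e-06)) came with rises on afatinib alone and falls with the combination. PRKDC, which fell with each drug, had -0.76 (SE 0.09, edgeR adjusted p = 6.16e-09). FANCD2, with the largest fall, gave -0.44 (SE 0.21, edgeR adjusted p = 0.112) and was not called, and neither were FANCI (0.11), FANCG (-0.05), RAD54L (-0.11) and LIG4 (0.02). Fewer interactions passed without the 4 libraries high in KRT5, a fit that leaves DMSO with 1 library. FANCF, at under 5 CPM on average, gave -1.21 (SE 0.31, edgeR adjusted p = 0.00168), with 0.84 for the combination and 0.99 and 1.06 for romidepsin and afatinib alone.

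RAD52 (0.50 (SE 0.19, edgeR adjusted p = 0.0351)) and XRCC3 (0.34 (SE 0.11, edgeR adjusted p = 0.0169)) lay above 0. RAD52 lay at -0.01 with the combination and at -0.39 with afatinib alone. The count above 0 was 0 without romidepsin replicate 1, afatinib replicate 2 or combination replicate 3. It was 1 without romidepsin replicate 2 or 3, afatinib replicate 1, combination replicate 1 or 2, or DMSO replicate 1 or 3.

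**Figure D4:**
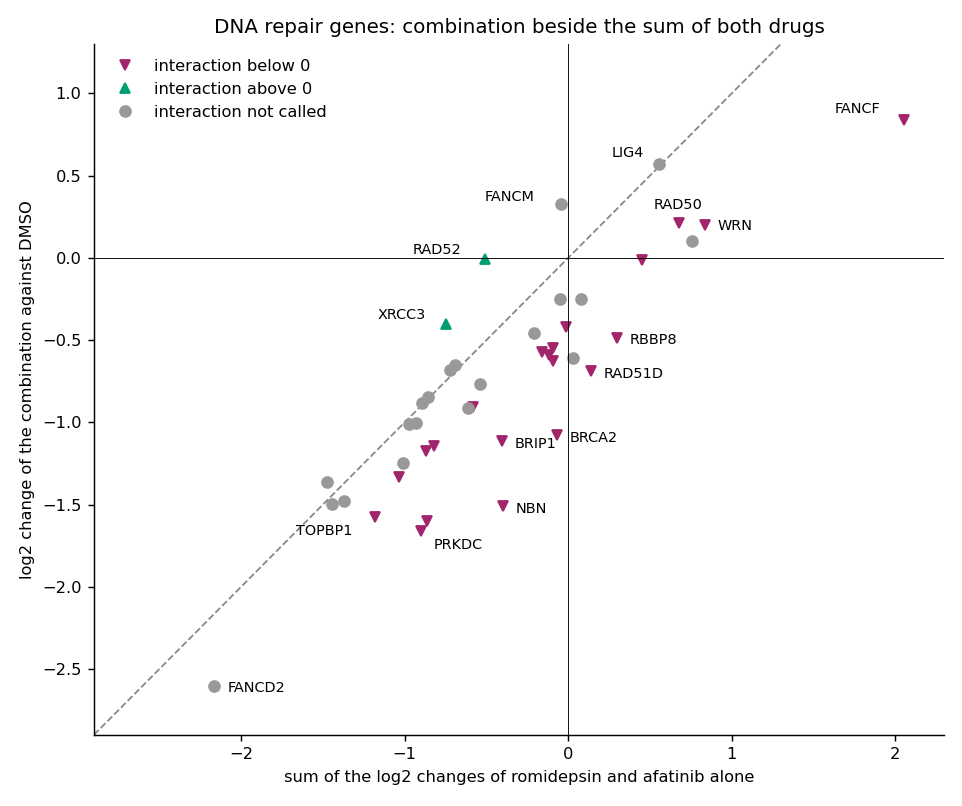
Log2 change of the combination against DMSO (vertical axis) against the sum of the log2 changes of romidepsin and afatinib alone (horizontal axis) for the 43 tested repair genes. On the dashed line the combination equals the sum. The 21 genes with an interaction below 0, such as NBN and BRCA2, lie below the line, RAD52 and XRCC3 lie above it, and FANCD2 was not called.

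Beside the 44 genes, 107 other DNA repair genes from a list by route were counted, of which 103 were tested. With romidepsin 52 fell and 15 rose, where 31.5% of all tested genes fell and 31.1% rose (edgeR, adjusted p below 0.05). With afatinib 33 fell and 13 rose, where 23.3% and 22.0% of all tested genes did, and with the combination 62 fell and 14 rose, where 37.1% and 37.2% did. Their median log2 fold change was -0.27 with romidepsin, -0.04 with afatinib and -0.49 with the combination, against 0.00, 0.00 and -0.01 over all tested genes. By route, 13 of 19 double-strand break response genes, 17 of 25 recombination and crosslink genes and 7 of 11 checkpoint partners fell with the combination. So did 3 of 3 further mismatch repair, 13 of 21 base excision, 7 of 16 nucleotide excision and 2 of 8 translesion or direct reversal genes, where 37.1% of all tested genes fell. TIMELESS, a protein of the replication fork, had 25.7 ± 2.26 CPM with the combination, against 128 ± 2.49 CPM in DMSO (log2 fold change -2.32, SE 0.08, edgeR adjusted p = 8.81e-31). UNG, which removes uracil from DNA, had 31.8 ± 3.99 CPM with the combination, against 141 ± 10.1 CPM in DMSO (-2.15, SE 0.08, edgeR adjusted p = 6.5e-29). RAD9A, a subunit of the checkpoint clamp, rose to 119.7 ± 8.36 CPM with the combination, against 35.8 ± 2.64 CPM in DMSO (1.75, SE 0.08, edgeR adjusted p = 2.95e-24). POLH, a translesion polymerase, rose to 53.1 ± 0.912 CPM with the combination, against 21.9 ± 4.17 CPM in DMSO (1.28, SE 0.11, edgeR adjusted p = 1.94e-14).

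Of 25 DNA replication genes, 24 fell and 1 rose with the combination, 23 fell and 1 rose with romidepsin, and 12 fell and 1 rose with afatinib. Over all tested genes, 37.1% fell with the combination, 31.5% with romidepsin and 23.3% with afatinib. The medians were -1.21 with the combination, -0.85 with romidepsin and -0.18 with afatinib. Of 20 mitosis genes, 20 fell with the combination, 18 with romidepsin and 18 with afatinib, with medians of -1.54, -0.71 and -0.73 in that order. MKI67, a marker of cycling cells, had 270.2 ± 1.82 CPM with the combination, against 1505 ± 125 CPM in DMSO (log2 fold change -2.48, SE 0.06, edgeR adjusted p = 2.16e-36). Both lists and the repair genes had negative medians with romidepsin and with the combination. With afatinib the median of the 43 repair genes was 0.00. The part of both lists in the repair gene values was not tested.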

How the data were processed

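RNA of 12 libraries, 3 per treatment, was compared. The deposited table holds raw counts of read pairs per gene name on GRCh38, made with featureCounts 2.0.0 from paired reads, ignoring strand and leaving out pairs that map to several places, per the file headers. Per the submitters' processing notes, STAR 2.7.9a and DESeq2 1.38.1 were among the tools. A second deposited table was not used here.

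Genes were kept by edgeR's filterByExpr, leaving 16208, and scaled by TMM. The test was edgeR 4.0.16 in R 4.3.3 (glmQLFit robust, glmQLFTest, two-sided) on 4 group means over all 12 libraries, and p-values were adjusted by Benjamini-Hochberg over these genes (biological coefficient of variation 6.13%). Counting error sets a floor of 3 counts. Replicates differed beyond counting noise (chi-square per degree of freedom 2.09 to 9.13), so none was a repeat deposit.

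Members and lists were chosen with earlier results of these data known. Members with values in every library are up to 8 per comparison with DMSO and 5 per other comparison, by size of log2 fold change among called members with a mean of at least 5 CPM, plus a fixed list. Alternatives were DESeq2 1.42.0, limma-voom (limma 3.58.1), other scalings and filters, the compared groups alone, a replicate block, removal of mitochondrial genes and libraries left out. Promoter windows came from RefSeq (GRCh38.p14).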

Additional observations from a re-analysis of the deposited data

Results flagged for a closer look

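For 23 of the 43 tested genes the change with the combination was not the sum of those with romidepsin and with afatinib, by the interaction test in edgeR (adjusted p below 0.05). Of all tested genes, 18.5% had an interaction below 0 and 11.7% above by that test. The values below are interactions on the log2 scale, and the test of each is that of the difference itself.

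Among the recombination genes, the interaction was -0.31 for BRCA1, -1.01 for BRCA2, -0.46 for PALB2, -0.48 for BARD1, -0.82 for RAD51D, -0.63 for WRN, -0.79 for RBBP8, -1.11 for NBN and -0.47 for RAD50. RAD52 at 0.50 and XRCC3 at 0.34 lay above 0. In the Fanconi anaemia route it was -0.53 for FANCC, -0.41 for FANCE, -1.21 for FANCF and -0.70 for BRIP1. The checkpoint genes ATM at -0.46, ATR at -0.41, CHEK1 at -0.74 and TOPBP1 at -0.39 were below 0. MSH6 of mismatch repair had -0.32. In end joining, XRCC5 had -0.33, XRCC6 -0.30 and PRKDC -0.76.

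The calls of ATR, FANCE and RAD52 were the least stable. The ATR call was lost in 15 alternatives (edgeR adjusted p up to 0.222), the RAD52 call in 12 (up to 0.0969) and the FANCE call in 10 (up to 0.309). The XRCC3 call was lost without romidepsin replicate 1 (0.068), afatinib replicate 2 (0.0609) or combination replicate 3 (0.0876). Those of BRCA1 and TOPBP1 were lost without afatinib replicate 1 (0.0508 and 0.0744), and BRCA1 also without combination replicate 1 (0.0727), in all in 4 alternatives for BRCA1 (up to 0.256) and 2 for TOPBP1 (up to 0.244). The XRCC5 call was lost without romidepsin replicate 2 (0.0637), afatinib replicate 3 (0.0528) or combination replicate 3 (0.0513), in all in 5 alternatives (up to 0.163). In 1 alternative each, the calls of ATM (0.149), BARD1 (0.144) and PALB2 (0.122) were lost without the 4 libraries high in KRT5, and that of XRCC6 (0.0657) with no filter.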

How the results depend on the processing

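Of 301 values of members over 7 comparisons, 208 were calls, and 164 of these held in every alternative that gave a value. No value that was called in the main test or in an alternative changed sign in that alternative. Sign changes of values called in neither were not counted. Over all alternatives 6337 values kept their side of the threshold, 202 calls were lost and 40 values were gained. With afatinib, 9 genes higher and 14 lower were 12 higher and 9 lower when scaled by library size alone, a share of higher calls of 57.1% against 39.1%. That scaling moves the median of all genes by 0.10 for afatinib and for the combination against DMSO. Without the 4 libraries high in KRT5, a keratin (DMSO replicates 1 and 2, afatinib replicate 3, combination replicate 1), which leaves DMSO with 1 library assumed to vary like the others, afatinib gave 5 higher and 6 lower, and the interaction gave 1 above 0 and 13 below. With no filter the interaction gave 1 above 0. When 1 library was left out, the combination against DMSO gave 2 to 5 higher and 31 to 33 lower, with 2 higher without DMSO replicate 3. Leaving out 1 library gave 0 to 2 genes with an interaction above 0 and 18 to 21 below. Counts with romidepsin against DMSO were then 5 to 6 higher and 24 to 27 lower, and with afatinib 6 to 11 higher and 12 to 14 lower. For the losses of calls other than those by leaving out libraries, the cause was not tested.

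Replicate numbers did not pair the libraries: 18 same-numbered pairs correlated at -0.090 to 0.089 in their deviations from group means. With the replicate block, the combination against DMSO gave 4 higher and 32 lower, against 4 and 33 without it, RAD51B being the call lost, and no other call changed. The comparison of only the compared groups could not be run for the interaction, which needs all 4. Depth limits RAD54B, RAD51B, XRCC4 and FANCF, which averaged under 5 CPM, and RAD54B also shares most of its exon bases with another gene name.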
